A study of Mus musculus with 12 samples.

Results

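The genes described here are 36 components of autophagy and of the lysosome, chosen by symbol, with no threshold on their values but with earlier results of these data known, and followed in primary mouse brain endothelial cells (BECs) of 2 genotypes and in 2 environments. All 36 were found in both deposited tables, out of 32419 genes listed in either. By role they comprised 4 initiation genes, 3 of the lipid kinase complex, 3 of membrane supply, 7 of the conjugation machinery, 5 of the ATG8 family, 5 cargo receptors and mitophagy genes, 2 transcription factors and 7 lysosomal genes.

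BECs were cultured from Cort+/+ mice (WT) or from Cort-/- mice (KO), which lack the gene of cortistatin, a neuropeptide related to somatostatin, on a C57BL/6 background. Cells were isolated from brains of 8-week-old mice and enriched with puromycin, and each replicate was a pool from 3 mice. Cultures stayed for 24 h in normoxia with glucose (NX/NG, 21% O2), or spent 4 h at 1% O2 without glucose and were then reoxygenated for 20 h (OGD-R). The deletion is present in every cell of the animal, so a difference between genotypes can also have arisen before the cells were taken. The labels name a middle cerebral artery occlusion model as the disease state of all samples, whereas the RNA came from the cultures described here.

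Of 12 samples listed, 10 had a column of values, namely 3 Cort+/+ and 2 Cort-/- libraries in each environment. Depth was nearly the same in all of them, at 12386048 to 12390428 reads assigned to genes. Whether the reads had been reduced to a common number before the values were made is not stated in the sources used here. Values are RPKM, the reads on a gene per kilobase of its length, scaled to the size of the library. The Cort+/+ libraries contained 2, 1 and 1 reads of Cort itself under NX/NG and 0, 0 and 1 after OGD-R, and all 4 Cort-/- libraries contained 0, a depth at which its loss cannot be checked. Ribosomal RNA (Rn18s-rs5) accounted for 7.64 to 15.8% of the reads of 8 libraries, and 2 OGD-R libraries had little of it (0.0775% for Cort+/+ replicate 1, 0.0951% for Cort-/- replicate 3). Endothelial markers such as Pecam1 and Cldn5 were abundant in every library (7 of 7 detected, summed level 883 to 1340 RPKM), while the summed level of 4 smooth muscle markers, mostly Acta2 and Tagln, was 995 to 1777 RPKM. Under NX/NG the summed level of 6 pericyte markers was lower in the Cort-/- libraries (7.59 to 10.2 RPKM against 17.9 to 21.4 in Cort+/+). It was mostly Pdgfrb (5.17 and 7.66 against 12.1 to 13.5) and Cspg4 (0.679 and 1.36 against 3.55 to 4.13). Rgs5 was lower too (1.46 and 1.06 against 1.83 to 3.53), Vtn overlapped, and Kcnj8 and Abcc9 had at most 1 read in these libraries. The sum of the fibroblast markers was lower as well (5 genes, 62.8 to 93.6 against 157 to 224), and was mostly Col1a1 and Col1a2. Of the others, Pdgfra was higher in Cort-/- cells (0.485 and 0.706 against 0.319 to 0.366 RPKM). Dcn overlapped (0.888 and 0.539 against 0.876 to 1.05), and Lum had at most 2 reads in these libraries. Of 8 macrophage or microglial markers 6 were listed in each table, with a summed level of 3.84 to 4.06 RPKM in Cort-/- against 2.60 to 3.15 in Cort+/+ cells. Most of that gap was Cd68 (2.00 and 2.19 against 1.10 to 1.57 RPKM), while Csf1r overlapped (1.67 and 1.57 against 1.14 to 1.71) and Ptprc had at most 8 reads in any library. The summed level of 4 epithelial markers was uneven, at 49.6 RPKM in Cort+/+ NX/NG replicate 2 and 37.0 in Cort-/- OGD-R replicate 1. It was 13.6 in Cort-/- NX/NG replicate 2 and 1.43 to 8.81 in the remaining libraries. In cultures of mixed cells, fewer cells of a type and less RNA per cell cannot be told apart.

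Autophagy delivers cytoplasm, protein aggregates and worn organelles to the lysosome for degradation. A kinase complex around ULK1 starts it, a lipid kinase complex around Beclin 1 marks the site, a ubiquitin-like conjugation system attaches ATG8 proteins (LC3 and GABARAP) to the growing membrane, and receptors such as p62 tie cargo to them. The finished vesicle fuses with the lysosome, where cathepsins digest its content, and the factors TFEB and TFE3 activate many genes of the route. In endothelium the route responds to starvation and low oxygen, and much of its control acts on proteins and their modification, which RNA levels do not show.

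All 36 members were expressed. In Cort+/+ BECs under NX/NG their mean levels ran from 1.03 RPKM (Tfeb) to 575 RPKM (Ctsd), with 6 members over 100 RPKM, 11 between 10 and 100 and 19 below 10. The median member lay at percentile 66.2 of the genes tested. Lysosomal genes led the order, with 4 of the 6 members over 100 RPKM. Orders and shares between genes rest on the gene length by which reads are divided, and the lengths of the transcripts present were not measured.

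**Figure D1:**
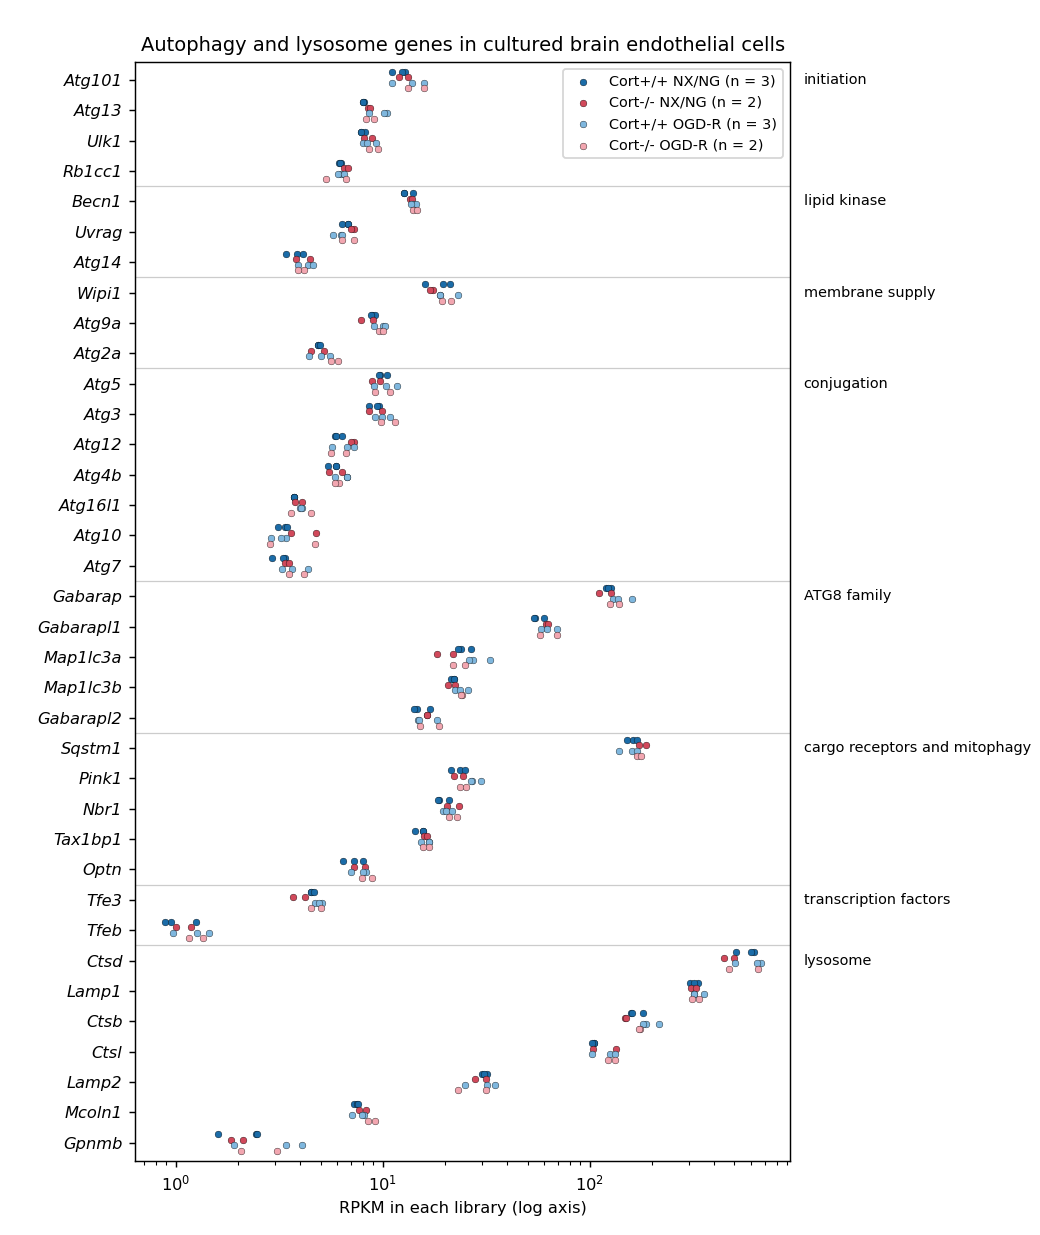
RPKM of each of the 36 members (rows, grouped by role) in each of the 10 libraries, on a log axis, with colours for the 4 groups. The groups lie close to each other for nearly all members, and the distance between genes, from about 1 RPKM for Tfeb to at least 447 for Ctsd, is far larger than that between groups.

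Cathepsin D (Ctsd), an aspartic protease of the lysosome, was at 618, 598 and 507 RPKM in the Cort+/+ NX/NG libraries. Lamp1, a glycoprotein of the lysosomal membrane, followed at 320 ± 14 RPKM (SD, n = 3), and its relative Lamp2 was at 30.9 ± 0.77. Cathepsin B (Ctsb, 166 ± 12 RPKM) and the receptor p62 (Sqstm1, 161 ± 9.8) were neighbours in the order that did not differ beyond their spread, and cathepsin L (Ctsl) was at 104 ± 1.3. At the low end of the lysosomal genes stood Mcoln1, a calcium channel of the lysosome, at 7.47 ± 0.17 RPKM, and Gpnmb, a glycoprotein known from macrophages and melanocytes, at 2.17 ± 0.49. Of the 3 cathepsins together, Ctsd made up 67.9% ± 1.9 of the summed RPKM (SD, n = 3). That share depends on the gene lengths used, 2351 bases for Ctsd, 6051 for Ctsb and 6489 for Ctsl. Reads a library were closer, at 13747 to 18484 for Ctsd, 11217 to 13373 for Ctsb and 7687 to 8919 for Ctsl. Part of the Ctsd reads can belong to an overlapping gene, as given below.

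Within the ATG8 family, whose products coat the autophagic membrane, Gabarap was the most abundant at 123 ± 3.4 RPKM in Cort+/+ NX/NG cells. Gabarapl1 followed at 56.1 ± 3.6, and then came Map1lc3a (24.5 ± 2.0), Map1lc3b (21.8 ± 0.35) and Gabarapl2 (15.2 ± 1.5). Gabarap alone held 51.0% ± 0.90 of the summed RPKM of the family, Gabarapl1 23.4% ± 1.2, Map1lc3a 10.2% ± 0.79 and Map1lc3b 9.07% ± 0.11. These shares depend on the gene lengths used, 1844 bases for Gabarap, 1181 for Map1lc3a and 7517 for Map1lc3b. In reads a library, Map1lc3b (1906 to 2111) lay far above Map1lc3a (313 to 387) and nearer to Gabarap (2601 to 2889). The sum over the family was 240 ± 6.6 RPKM in Cort+/+ and 239 ± 10 (n = 2) in Cort-/- cells under NX/NG, and 274 ± 29 and 260 ± 5.9 after OGD-R. The environments were scaled separately in these values, so the sums compare genotypes within an environment and not the environments.

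The genes that start and build the vesicle were at 3.18 to 18.9 RPKM in the same cells. Among the initiation genes, Atg101 (12.1 ± 0.89 RPKM), Atg13 (8.04 ± 0.044), the kinase Ulk1 (7.95 ± 0.19) and the scaffold Rb1cc1 (6.20 ± 0.065) lay within a narrow band. Beclin 1 (Becn1, 13.1 ± 0.77) exceeded its partners Uvrag (6.64 ± 0.24) and Atg14 (3.79 ± 0.37). Of the membrane supply genes the lipid-binding Wipi1 was at 18.9 ± 2.6, the scramblase Atg9a at 8.92 ± 0.18 and the lipid transporter Atg2a at 4.89 ± 0.056. The conjugation genes fell between 9.92 ± 0.48 for Atg5 and 3.18 ± 0.24 for Atg7, the enzyme that activates both ubiquitin-like proteins. The mitophagy kinase Pink1 (23.3 ± 1.8) and the receptors Nbr1 (19.4 ± 1.2), Tax1bp1 (15.2 ± 0.76) and Optn (7.24 ± 0.79) completed the list with Tfe3 (4.55 ± 0.067), which was the higher of the 2 transcription factors.

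The spread among replicates is given for each group beside that of all genes tested. It rests on 3 libraries in Cort+/+ and 2 in Cort-/- groups, so its size cannot be compared between the genotypes. Each OGD-R group held a library low in ribosomal RNA. In Cort+/+ cells the members' median coefficient of variation was 5.21% under NX/NG (8.26% over all genes tested) and 8.73% after OGD-R (11.1%), with 31 and 20 of 36 members below 10%. In Cort-/- cells it was 7.06% under NX/NG, above the 6.53% of all genes, and 7.66% after OGD-R (10.9%), with 28 and 22 members below 10%. The widest were Gpnmb in Cort+/+ and Atg10 in Cort-/- cells after OGD-R, at 35.2% and 34.7%. Across all 10 libraries, in RPKM as deposited, the highest value of a member was 1.15 (Becn1) to 2.54 times (Gpnmb) its lowest. After Gpnmb came Map1lc3a (1.79 times), Atg10 (1.67) and Tfeb (1.64), while Lamp1 and Tax1bp1 stayed within 1.17 times. The 2 environments were scaled separately in these values, which enters the ratios. With both scaled together, Atg10 ran from 2.78 to 4.90 RPKM and Map1lc3a from 18.9 to 32.0, and the ratio of Atg10 was then the larger. Atg10 and Tfeb rested on 65 to 104 and 61 to 113 reads a library, and Gpnmb on 120 to 363, so counting error is larger for them than for Ctsd with at least 12958 reads.

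TFEB and TFE3 recognise a palindrome that contains an E-box. Windows from 250 bases before to 50 after the annotated start (RefSeq, GRCm38.p6) were available for 30 of the 36 members, as 35 windows. The E-box CACGTG was in the windows of 8 members (22.9% of member windows, against 7.15% of all 32851 windows), and the longer TCACGTGA, which includes it, in 3 (8.57% against 0.974%). Both motifs read the same on both strands. The 4 stretches below are shown because they hold the longer motif or, for Lamp1, 4 copies of the E-box; capitals mark the motifs, on the strand of the gene.
Atg3, chr16:45158715-45158783 (+): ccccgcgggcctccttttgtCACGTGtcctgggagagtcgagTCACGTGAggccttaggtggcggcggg
Ctsd, chr7:142387900-142387965 (-): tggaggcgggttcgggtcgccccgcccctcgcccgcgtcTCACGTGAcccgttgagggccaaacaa
Mcoln1, chr8:3500428-3500499 (+): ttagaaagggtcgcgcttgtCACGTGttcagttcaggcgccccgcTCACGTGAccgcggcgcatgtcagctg
Lamp1, chr8:13159080-13159160 (+): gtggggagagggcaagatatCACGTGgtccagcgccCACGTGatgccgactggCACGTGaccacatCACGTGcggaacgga
These matches are letters in a window and no measure of binding. None of the 4 genes was called in any comparison below: their log2 fold changes of Cort-/- over Cort+/+ under NX/NG were 0.01 (Atg3), -0.28 (Ctsd), 0.09 (Mcoln1) and -0.01 (Lamp1).

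The first comparison asked whether BECs that lack cortistatin differ from Cort+/+ BECs at rest. No member was called under NX/NG: limma found 0 of 36 members, and 0 of 14220 genes tested (0%), below the FDR threshold of 0.05. Before adjustment 2 members had p under 0.05, Atg12 higher and Map1lc3a lower in Cort-/- cells, while 13.2% of all genes tested reached that level (5.42% higher, 7.75% lower). With limma-voom on the recovered reads, 53 genes (0.373%) were called, none of them a member, and 4 members had an unadjusted p under 0.05, against 15.7% of all genes. The log2 fold changes of the members lay between -0.28 and 0.32, with a median of 0.07 against 0.01 over all genes; their median size was 0.10, against 0.12 over all genes. For 33 of the 36 the 95% interval of the difference stayed within 1.5-fold in either direction, and for all 36 within 2-fold, so that larger differences at rest lie outside the intervals. The exceptions to the first limit were Atg10, Gpnmb and Tfeb, the members with the fewest reads. With 1 library left out in turn, the count of 2 became 0 (without Cort-/- replicate 2 or Cort+/+ replicate 2), 1 (without Cort+/+ replicate 1), 5 (without Cort-/- replicate 1) or 6 (without Cort+/+ replicate 3).

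**Figure D2:**
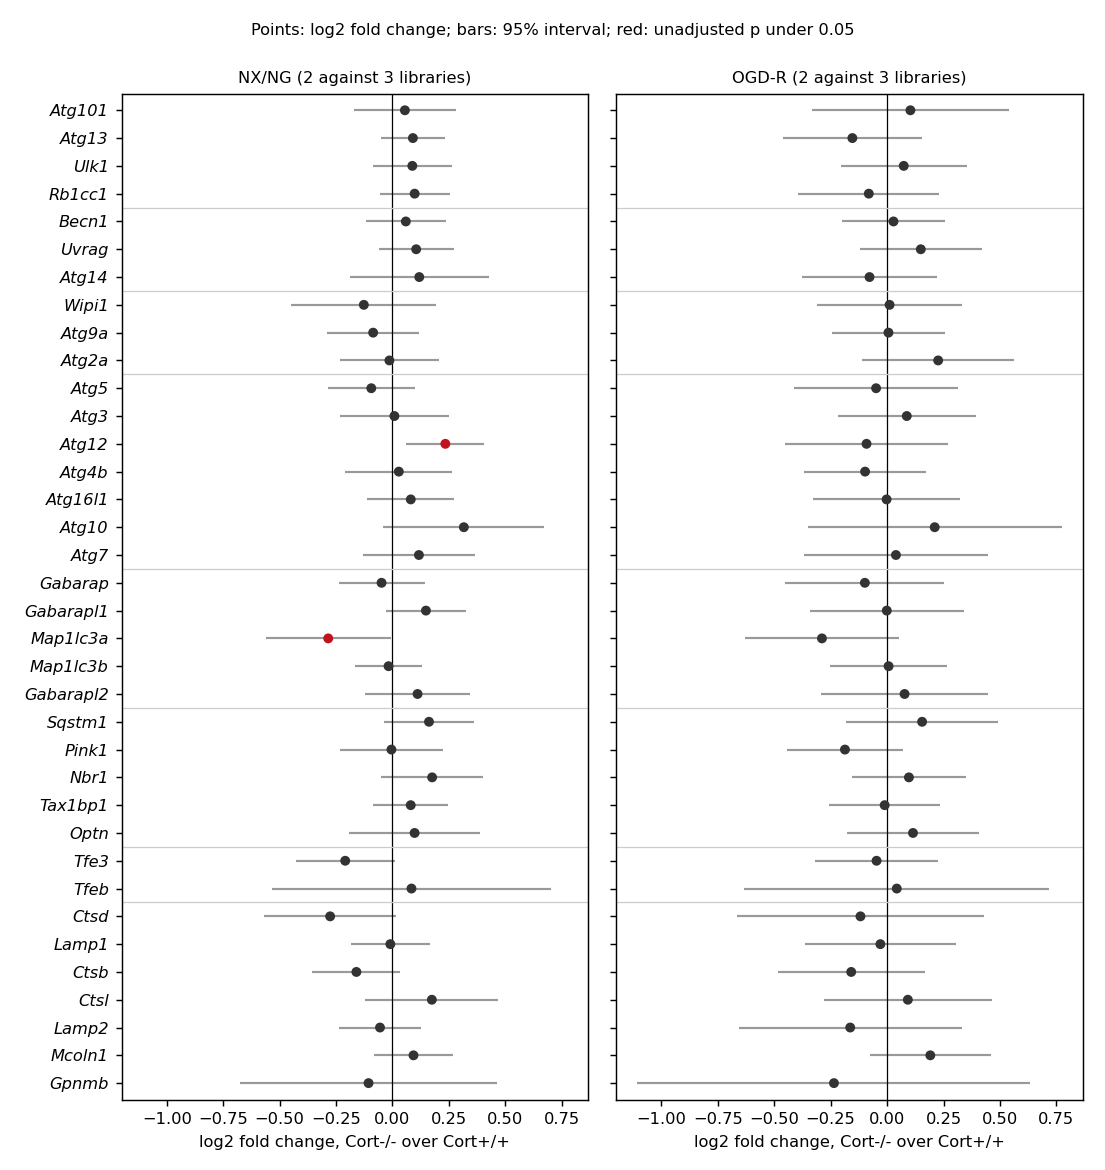
Log2 fold change of Cort-/- over Cort+/+ BECs for each member (rows), under NX/NG on the left and after OGD-R on the right, from 2 Cort-/- and 3 Cort+/+ libraries each; bars are 95% intervals without adjustment and red marks an unadjusted p under 0.05. Only Atg12 and Map1lc3a are red, on the left, and Map1lc3a lies at nearly the same place in both panels.

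Atg12 encodes the ubiquitin-like protein that is joined to ATG5. It was at 7.22 and 7.02 RPKM in the Cort-/- libraries and at 6.34, 5.84 and 5.95 in the Cort+/+ libraries under NX/NG. Both Cort-/- values lay above all 3 Cort+/+ values, with a log2 fold change of 0.23 ± 0.068 (SE, adjusted p = 0.313 by limma). Of its partners in the conjugate, Atg5 was at 8.85 and 9.73 RPKM in Cort-/- against 9.61 to 10.5 in Cort+/+ cells, with overlap, and Atg16l1 at 3.78 and 4.09 against 3.70 to 3.72, both values above those of Cort+/+.

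Map1lc3a encodes LC3A, an ATG8 protein. Its level was 21.9 and 18.3 RPKM in the Cort-/- libraries and 26.7, 23.8 and 23.0 in the Cort+/+ libraries, with no overlap and a log2 fold change of -0.28 ± 0.11 (SE, adjusted p = 0.368 by limma). The size of the difference depended on 1 library, as it was -0.41 without Cort-/- replicate 1 and -0.16 without Cort-/- replicate 2. The other LC3 gene, Map1lc3b, was at 20.7 and 22.3 against 21.4 to 22.0 RPKM. Tfe3, the third by p, was at 4.20 and 3.66 RPKM in Cort-/- against 4.50, 4.52 and 4.62 in Cort+/+, again without overlap (log2 fold change -0.21 ± 0.086, adjusted p = 0.392 by limma). Its difference was -0.31 without Cort-/- replicate 1 and -0.11 without Cort-/- replicate 2.

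By role, the 4 initiation genes and the 3 lipid kinase genes all had positive log2 fold changes (0.06 to 0.10 and 0.06 to 0.12), and 6 of the 7 conjugation genes did. The 3 membrane supply genes were all below 0 (-0.13 to -0.01). Of the lysosomal genes 5 of 7 were below 0, among them Ctsd at 500 and 447 RPKM in Cort-/- against 507 to 618 in Cort+/+, and Ctsb at 148 and 149 against 158 to 180. Groups did not overlap for 15 members, 11 of them higher and 4 lower in Cort-/- cells, where 32.7% of all genes did not overlap (16.2% higher, 16.5% lower). Over all genes tested, 7403 were above 0 and 6817 below. These signs are a description, since no role holds a called gene.

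Other genes of the route were read from lists of 30 further autophagy genes, 46 lysosomal genes, 16 subunits of the V-ATPase, the proton pump that acidifies the lysosome, and 32 genes of nutrient sensing. None of the 118 tested under NX/NG was called. An unadjusted p under 0.05 was found for 16 (11 higher, 5 lower), a share close to the 13.2% of all genes. They were 3 of 29 autophagy genes, all higher in Cort-/- cells (Nrbf2, log2 fold change 0.31; Snap29, 0.22; Tollip, 0.19), 9 of 45 lysosomal genes (7 higher, 2 lower), 1 of 16 V-ATPase genes (Atp6v1e1, 0.16) and 3 of 28 nutrient sensing genes, all lower. Cathepsin K (Ctsk), a protease that degrades collagen, had the largest difference of these lists, at 8.14 ± 0.76 RPKM (SD, n = 2) in Cort-/- against 15.8 ± 2.4 (n = 3) in Cort+/+ cells (log2 fold change -0.94 ± 0.15 SE, adjusted p = 0.208 by limma). In the same libraries the fibroblast collagens were lower as well, Col1a1 at 67.5 and 46.5 RPKM against 113 to 166, and the part of such cells in the Ctsk value was not tested. Laptm5, a lysosomal membrane protein of blood cells, was at 51.2 ± 3.9 against 36.4 ± 3.6 RPKM (0.49 ± 0.10), progranulin (Grn), a secreted and lysosomal glycoprotein, at 143 ± 2.9 against 121 ± 0.82 (0.23 ± 0.051), and Idua, which degrades glycosaminoglycans, at 8.31 ± 0.83 against 6.24 ± 0.54 (0.41 ± 0.11). Cd68, a lysosomal protein of macrophages that also belongs to the macrophage list, was at 2.09 ± 0.14 against 1.28 ± 0.25 (0.68 ± 0.20). Cd68 rested on 17 to 35 reads a library, and whether macrophage RNA contributed was not tested. In nutrient sensing the AMPK subunit Prkab2 was at 3.85 ± 0.10 against 4.88 ± 0.059 RPKM (-0.33 ± 0.067), and the Ragulator subunits Lamtor4 and Lamtor2, which hold mTORC1 at the lysosome, had log2 fold changes of -0.23 and -0.21. The kinase Mtor itself, whose gene lies 0.567 Mb from Cort, was at 7.23 ± 0.33 against 7.79 ± 0.17 RPKM (-0.11, unadjusted p = 0.153 by limma). Laptm5 and the member Pink1 lie on the same chromosome, 18.2 and 10.8 Mb from Cort, and the part of this position in their values was not tested.

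**Figure D3:**
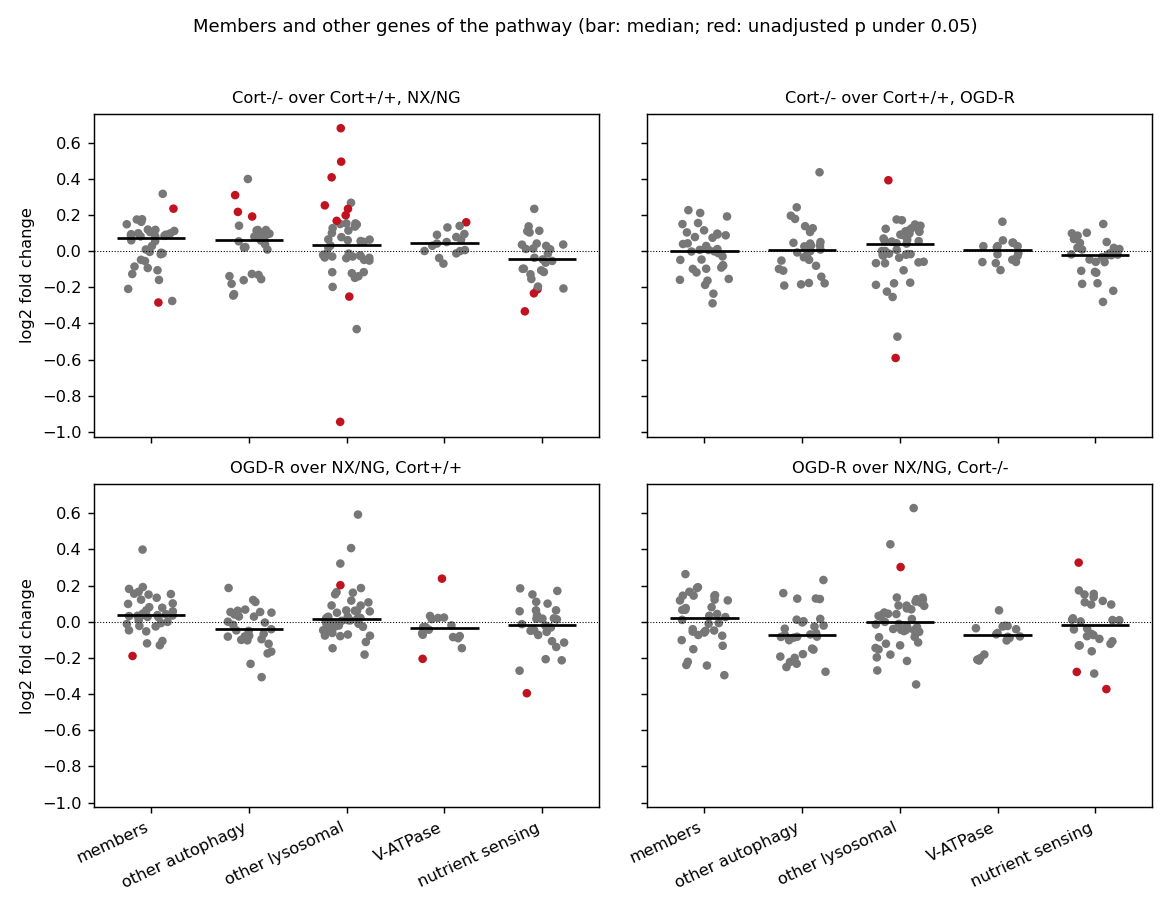
Log2 fold changes of the 36 members and of the other autophagy, lysosomal, V-ATPase and nutrient sensing genes (points) in the 4 comparisons of groups, with the median of each list as a bar and an unadjusted p under 0.05 in red. The medians lie within 0.1 of 0 in every panel, and the points farthest from 0 are other lysosomal genes, with Ctsk lowest under NX/NG.

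The second comparison asked the same question after OGD-R. No member was called (0 of 36, and 0 of 14325 genes, 0%, by limma; limma-voom called 1 gene, 0.00698%, no member). None reached an unadjusted p under 0.05, where 3.72% of all genes did (1.48% higher, 2.24% lower); limma-voom gave 0 members as well, against 3.34% of all genes, and without Cort-/- replicate 3 the count by limma was 1. The members' log2 fold changes lay between -0.29 and 0.23 with a median of 0.00, against -0.01 over all genes. The 95% interval stayed within 1.5-fold for 30 members and within 2-fold for 35, with Gpnmb as the exception to the wider limit. Cort+/+ and Cort-/- values did not overlap for 6 members (3 higher, 3 lower), against 16.2% of all genes (7.94% higher, 8.22% lower).

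Map1lc3a had the lowest p of the members after OGD-R. It was at 21.9 and 25.1 RPKM in the Cort-/- libraries and at 27.4, 32.8 and 26.1 in the Cort+/+ libraries after OGD-R, a log2 fold change of -0.29 ± 0.14 (SE, adjusted p = 0.999 by limma). The sign was that found at rest, where other libraries were used. With 1 library left out the value ran from -0.39 (without Cort-/- replicate 3) to -0.19 (without Cort-/- replicate 1 or Cort+/+ replicate 2). Pink1 was at 23.6 and 25.2 against 27.0, 29.8 and 26.6 RPKM (-0.19 ± 0.10), and Mcoln1 at 9.17 and 8.49 against 8.09, 7.97 and 7.12 (0.19 ± 0.11), in both cases without overlap between the genotypes.

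The genotypes stood apart in the same direction in both environments for 4 members: Mcoln1 and Uvrag were higher and Map1lc3a and Ctsb lower in every Cort-/- library. Over the 13889 genes with a test in each environment, 7.06% were apart in the same direction in both (3.53% higher and 3.53% lower), and 0.511% in opposite directions, which held for 0 members. Uvrag, a partner of Becn1, was at 7.25 and 7.05 against 6.36 to 6.81 RPKM under NX/NG and at 7.22 and 6.38 against 5.77 to 6.32 after OGD-R. Ctsb after OGD-R was at 176 and 172 RPKM in Cort-/- against 186, 216 and 182 in Cort+/+ cells. The 2 comparisons share no library; whether cultures of 1 pool of mice were divided between the environments is not stated.

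Among the other genes of the route, 2 of 118 had an unadjusted p under 0.05 after OGD-R, a smaller share than the 3.72% of all genes. Cathepsin C (Ctsc), which activates serine proteases of granules, was at 1.68 ± 0.11 RPKM in Cort-/- against 2.62 ± 0.55 in Cort+/+ cells (log2 fold change -0.59 ± 0.22). Laptm5 was again higher, at 50.1 ± 7.7 against 38.1 ± 3.7 RPKM (0.39 ± 0.14). Ctsk was at 13.6 ± 4.2 against 18.7 ± 3.1 RPKM and the genotypes overlapped. The summed fibroblast markers also overlapped there, at 161 and 206 against 169 to 279 RPKM.

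The passage from NX/NG to OGD-R was compared within each genotype, on reads of the genes in both tables scaled together. In Cort+/+ BECs (3 libraries against 3) 0 of 36 members and 0 of 14450 genes (0%) were called by limma, and none by limma-voom. An unadjusted p under 0.05 was found for 1 member, Uvrag, against 6.64% of all genes (4.1% higher, 2.53% lower); limma-voom gave 1 as well, against 6.37%. The count became 0 without Cort+/+ NX/NG replicate 1 or 2 or OGD-R replicate 2, and 3 without OGD-R replicate 3. Log2 fold changes of OGD-R over NX/NG ran from -0.19 to 0.40, with a median of 0.04 against 0.00 over all genes and a median size of 0.06 against 0.11. For 34 members the 95% interval was within 1.5-fold. Groups were apart for 4 members (3 higher and 1 lower after OGD-R), against 12.7% of all genes (7.48% higher, 5.18% lower).

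**Figure D4:**
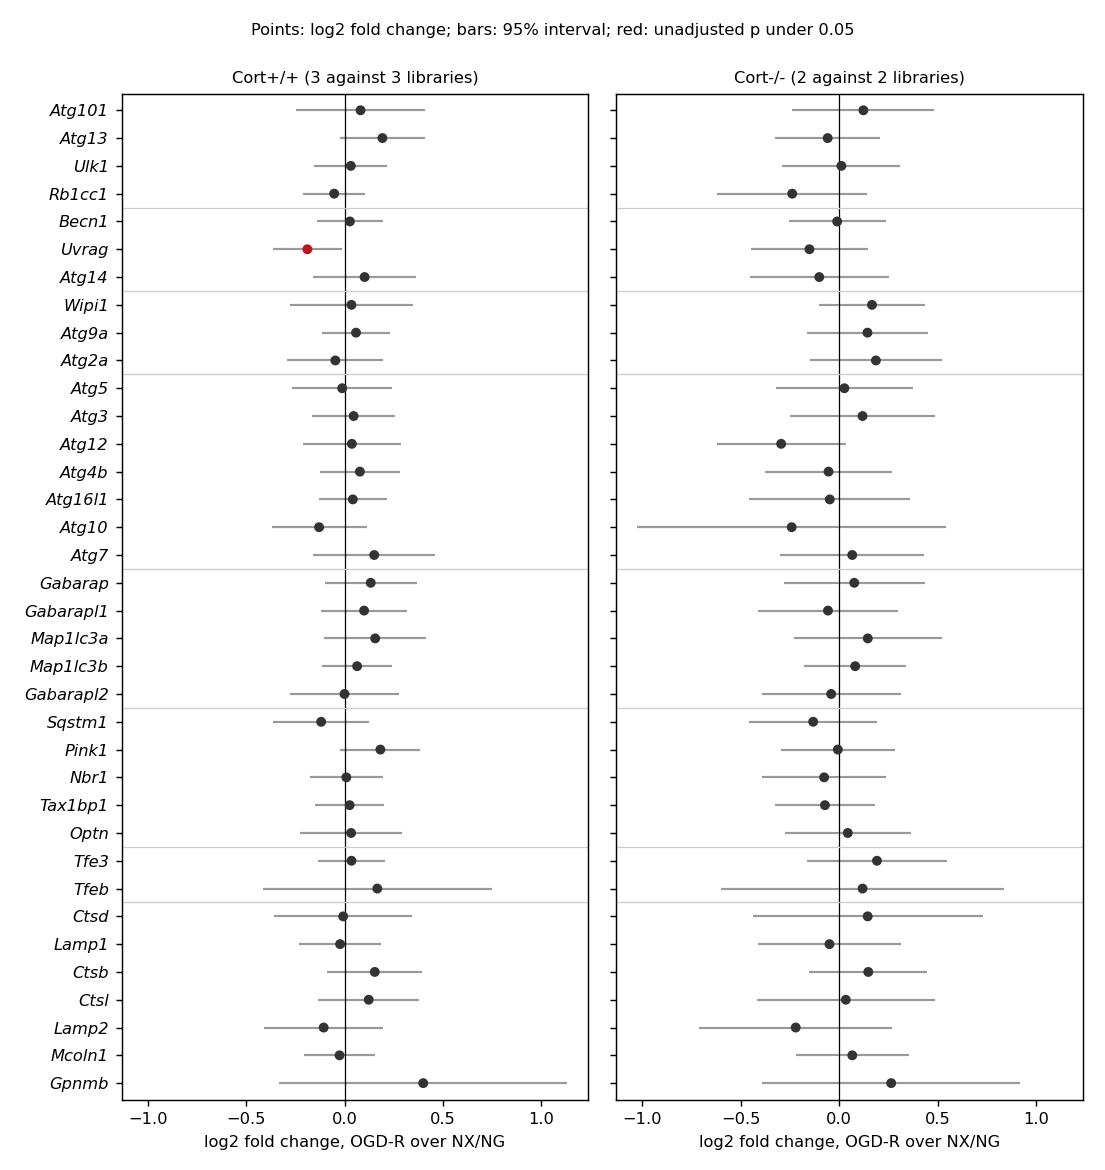
Log2 fold change of OGD-R over NX/NG for each member (rows) in Cort+/+ BECs (3 against 3 libraries, left) and Cort-/- BECs (2 against 2, right), with 95% intervals without adjustment. Uvrag, on the left, is the only member with an unadjusted p under 0.05, and the intervals of Gpnmb and, on the right, Atg10 are the widest.

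Uvrag was at 6.52, 6.91 and 6.99 RPKM on the joint scale in the Cort+/+ NX/NG libraries and at 6.10, 5.62 and 6.16 after OGD-R. All OGD-R values lay below all NX/NG values, with a log2 fold change of -0.19 ± 0.073 (SE, adjusted p = 0.730 by limma). With 1 library left out it ran from -0.22 to -0.15, and its unadjusted p stayed under 0.05 in 1 of 6 such fits, the one without OGD-R replicate 3. Pink1 was at 22.0, 24.2 and 25.6 RPKM before and 26.3, 29.1 and 26.0 after (0.18 ± 0.084). Atg13, the adaptor of the ULK1 kinase, was at 8.28, 8.18 and 8.25 before and 8.35, 10.2 and 9.82 after (0.19 ± 0.090); its lowest OGD-R value came from the replicate low in ribosomal RNA. Gpnmb had the largest log2 fold change, 0.40 ± 0.30, but its values overlapped, at 2.50, 2.52 and 1.64 before and 3.95, 3.31 and 1.87 after.

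In Cort-/- BECs (2 libraries against 2) 0 of 36 members and 0 of 13998 genes (0%) were called by limma, none by limma-voom, and no member had an unadjusted p under 0.05, against 3.85% of all genes (2.09% higher, 1.76% lower); limma-voom gave 1, Atg12, against 4.09%, and without OGD-R replicate 1 the count by limma was 3. The log2 fold changes were between -0.30 and 0.26, with a median of 0.02 against -0.01 over all genes. Groups were apart for 11 members (6 higher, 5 lower), against 34.2% of all genes (16.1% higher, 18.1% lower), and the 95% interval was within 1.5-fold for 29 members and within 2-fold for 35.

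Atg12 had the lowest p in this comparison. It was at 7.43 and 7.23 RPKM on the joint scale under NX/NG and at 6.46 and 5.48 after OGD-R, a log2 fold change of -0.30 ± 0.12 (SE, adjusted p = 0.938 by limma). The lower of the 2 OGD-R values was that of the replicate low in ribosomal RNA (replicate 3), without which the fold change was -0.18; without replicate 1 it was -0.41. Rb1cc1, the scaffold of the ULK1 complex, showed the same layout, at 6.68 and 6.99 before and 6.44 and 5.18 after (-0.24 ± 0.14), with values of -0.08 and -0.39 when OGD-R replicate 3 or 1 was left out. Wipi1 was at 17.9 and 17.4 before and 18.9 and 20.8 after (0.17 ± 0.10; 0.10 without OGD-R replicate 3), and with Atg9a and Atg2a all 3 membrane supply genes were higher in both OGD-R libraries.

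**Figure D5:**
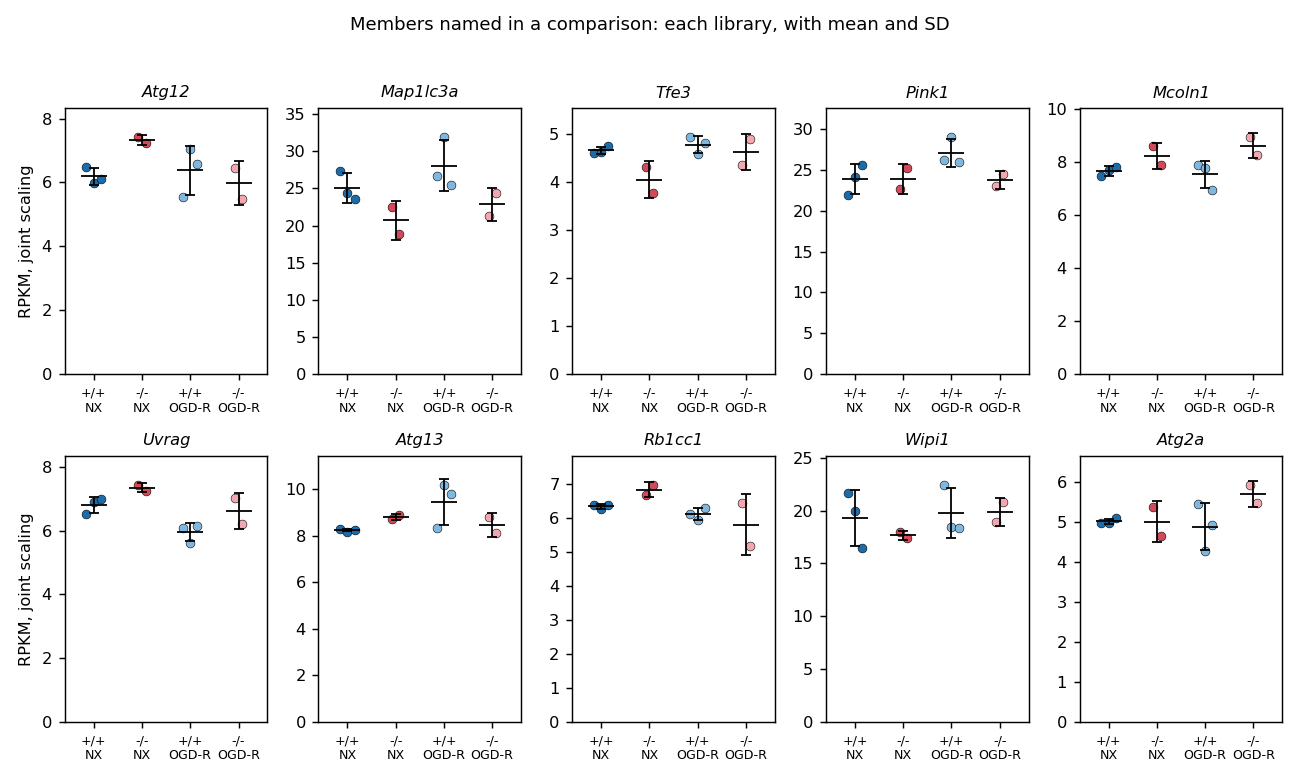
RPKM on the joint scale of the 10 members named in a comparison, in each library of the 4 groups, with the mean and SD as a cross and bar; each axis starts at 0. Values of a group lie within a narrow range of those of the others, with the Cort-/- NX/NG values of Atg12 above and those of Map1lc3a below the Cort+/+ NX/NG values.

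Of the 118 other genes of the route, 4 had an unadjusted p under 0.05 in the passage of Cort+/+ cells, a smaller share than the 6.64% of all genes. Sesn3, a sestrin that restrains mTORC1, was at 6.92 ± 0.38 RPKM before and 5.25 ± 0.65 after (log2 fold change -0.40 ± 0.11, adjusted p = 0.720 by limma). The protease legumain (Lgmn, 0.20) and the V-ATPase subunit Atp6v1f (0.24) were higher after OGD-R, and the subunit Atp6v1a (-0.20) lower. In Cort-/- cells there were again 4, against 3.85% of all genes: Sgsh, a sulfatase (0.30), and the AMPK subunit Prkag1 (0.33) were higher, the GTPase Rragc (-0.37) and the folliculin partner Fnip1 (-0.28) lower. Of the 16 V-ATPase genes 15 had log2 fold changes below 0 in Cort-/- cells, with a median of -0.08 and none at an unadjusted p under 0.05, where 7293 of all 13998 genes were below 0.

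The difference between the 2 passages was tested as an interaction over all 10 libraries. No member was called (0 of 36, and 0 of 14855 genes, 0%, by limma; limma-voom also called none), and no member had an unadjusted p under 0.05 by either, against 1.78% of all genes by limma and 1.45% by limma-voom; without Cort-/- OGD-R replicate 1 or Cort+/+ OGD-R replicate 1 the count was 2. The lowest p was that of Atg12, whose log2 fold change with OGD-R was 0.04 in Cort+/+ and -0.30 in Cort-/- cells (difference -0.33 ± 0.16 SE, unadjusted p = 0.0740, adjusted p = 1.00 by limma). It was -0.22 without Cort-/- OGD-R replicate 3. Atg13 (difference -0.25 ± 0.13) and Atg2a (0.23 ± 0.16) followed; that of Atg2a was 0.13 without Cort-/- NX/NG replicate 2 and 0.14 without Cort+/+ OGD-R replicate 2. Of the other genes of the route Cd68 alone had an unadjusted p under 0.05 (-0.75 ± 0.30). The difference for Map1lc3a was -0.01, with a 95% interval from -0.42 to 0.40, so that the 2 passages can still differ for it within that range.

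The 2 OGD-R libraries low in ribosomal RNA, 1 of each genotype, stood apart from the other 3 for 15 members, 5 higher and 10 lower, where 30.2% of all genes stood apart (14.2% higher, 16.0% lower). Lamp2 was at 23.1 and 24.9 RPKM in these 2 and at 31.4 to 34.7 in the other 3. Atg12 was at 5.63 and 5.69 against 6.63 to 7.22, and Atg10, an enzyme that transfers ATG12, at 2.86 and 2.88 against 3.21 to 4.71. Ctsd went the other way, at 648 and 669 against 470 to 641 RPKM. Both genotypes hold 1 such library. With a term for them in the fit, 0 members had an unadjusted p under 0.05 between the genotypes after OGD-R and 1 in the interaction, Atg12 (difference -0.29, unadjusted p = 0.0267, adjusted p = 1.00 by limma).

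Reads of some members can be shared with other genes. Among stretches of 40 bases in their transcripts, 32.8% of those of Ctsd also occur in Gm49369, an overlapping gene on the same strand that held 7738 to 12604 reads a library, and 30.2% of those of Atg9a occur in Gm29253, with 310 to 461 reads. The levels of Ctsd and Atg9a are therefore uncertain. Smaller shares were found for Gabarapl2 (13.2%), Ctsl (7.01%), Map1lc3b (6.79%) and Rb1cc1 (6.52%), and 14 members share none. Exons of 13 members overlap a gene on the opposite strand, and whether the counting used the strand is not given in the sources used here.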

How the data were processed

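RNA-seq of primary BECs was analysed for Cort+/+ and Cort-/- cells under NX/NG and after OGD-R. The authors deposited 1 table of RPKM values for each environment, in which all libraries of the environment were scaled together; the submitters' processing notes name edgeR, while the aligner, the genome build and the annotation are not given in the sources used here. Per the labels the libraries were made with a stranded mRNA kit. For 2 of the listed Cort-/- samples, replicate 3 of NX/NG and replicate 2 of OGD-R, there is no column, and they were not analysed here. Further tables with the authors' own fold changes and p-values, and 10 columns of expression categories, were not used.

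Multiplied by gene length and divided by the value of 1 read, at least 99.996% of the RPKM values of each library lay within 0.05 of a whole number, which gave the reads. The depth of 12386048 to 12390428 reads on genes per library limits precision for the members with fewest reads. Each fit used limma (version 3.58.1, R version 4.3.3), with variances moderated along a trend, on log2(RPKM + 0.1) of the genes that reached 1 RPKM in 2 or more libraries; it held the groups compared and no others, with every mapped library. Fold changes are on the log2(RPKM + 0.1) scale, which understates changes of low genes. P-values were adjusted by Benjamini-Hochberg over all genes tested, at an FDR of at most 0.05. For comparisons between environments and the interaction, the 27321 genes that both tables list were taken, their recovered reads scaled jointly by the trimmed mean of M values, and RPKM on this joint scale calculated. The fit was tested on simulated data with known changes. Intervals are 95% intervals of the fit, without adjustment. Within a group, replicates are separate pools of animals, and p-values measure the spread between them. The passage and interaction fits treated all libraries as unpaired, although whether a pool was divided between the environments is not stated.

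The members and lists were chosen with earlier results of these data known. Every member was named; a comparison's own sentences went to members with an unadjusted p under 0.05, or the 3 of lowest p, and at most 4 genes of each other list with p under 0.05. Ctsk after OGD-R, Mtor, and the members given by role or for standing apart were chosen after their values were seen. Alternatives were a pseudocount of 1, no filter, quantile normalization, limma-voom on the recovered reads, 1 library left out, all groups in 1 fit, the replicate number as a block, and a covariate marking the libraries with little ribosomal RNA. Transcripts, exons and overlaps come from GENCODE vM21, promoters from RefSeq (GRCm38.p6).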

Additional observations from a re-analysis of the deposited data

How the results depend on the processing

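No member passed the FDR threshold of 0.05 in any of 60 alternatives, and the 15 fold changes of members named for a low p kept their sign in all 180 of theirs. Those 15 were chosen for low p in these same libraries, so the kept signs are no separate support. In the comparisons of 2 groups the groups did not overlap for them, and leaving out 1 library could not turn the sign. Counts of members at an unadjusted p under 0.05 moved, and the cause was not tested. Between genotypes under NX/NG (2 members) there were 4 with limma-voom, 0 with all groups in one fit and 0 to 6 with 1 library left out. After OGD-R (0 members) there was 1 with all groups in one fit (Mcoln1), and 0 to 1 with 1 library left out. For the passage in Cort+/+ cells (1 member) there were 2 with quantile normalization, 2 with all groups in one fit and 0 to 3 with 1 library left out. In Cort-/- cells (0 members) there was 1 with limma-voom, 1 with all groups in one fit and 0 to 3 with 1 library left out, where the single library of an arm is assumed to vary like the others. For the interaction (0 members) there was 1 when a covariate marked the libraries with little ribosomal RNA and 0 to 2 with 1 library left out.

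Whether the replicate numbers pair the samples could not be decided. Deviations of libraries of the same number correlated between -0.39 (Cort-/- and Cort+/+ OGD-R replicates 1) and 0.13 (Cort-/- NX/NG and Cort+/+ OGD-R replicates 1). With 2 libraries in a Cort-/- group, their deviations are mirror images, so their correlations differ only in sign. The 2 libraries low in ribosomal RNA, Cort-/- OGD-R replicate 3 and Cort+/+ OGD-R replicate 1, correlated at 0.39. With the number as a replicate block there were 4 members at an unadjusted p under 0.05 between genotypes under NX/NG, and no other count of members moved. In the passage of Cort+/+ cells, Uvrag had an unadjusted p = 0.0701 by limma with the block, so the unchanged count there stood for another member. No paired fit was made for Cort-/- cells between environments, whose libraries share only 1 number.

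Over all genes at the FDR threshold, the main limma fit called 0 in each comparison. The paper, with its own processing, reports differentially expressed genes at that threshold in every comparison of groups, and the reason for the gap was not tested. Alternatives gave 53 (limma-voom) and 3 (one fit) between genotypes under NX/NG, 1 (limma-voom) and 4 (one fit) after OGD-R, 9 (no filter) for the passage in Cort+/+ cells, 1 (one fit) in Cort-/- cells, and 3 (no filter) and 2 (without Cort-/- OGD-R replicate 1) for the interaction.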
